A study of Mus musculus with 4 samples.

Results

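The 9 bHLH transcription factor genes of neurogenesis examined here were compared in whole mouse embryos with and without Cop1. These were 5 proneural genes (Atoh1, Ptf1a, Neurog1, Neurog2 and Neurog3) and 4 genes that act later in forming neurons (Neurod1, Neurod4, Nhlh1 and Nhlh2). They were taken by gene symbol, with every probe set that the platform annotation assigns to that symbol alone. This gave 14 of 45037 tested probe sets, for 9 of 18193 named genes. All 4 later genes fell in the Cop1-null pool, by 0.78 to 1.63 on the log2 scale, and so did 4 of the 5 proneural genes. Neurog1 fell 2.99-fold, further than 3 of the 4 later genes, although its other probe set differed by only 1.46-fold. Of the other proneural genes, Neurog3 fell 1.71-fold, Ptf1a 1.53-fold and Neurog2 just over the limit of 1.5-fold, and Atoh1 was not called. Neurog3 was not called on its other probe set, and Ptf1a and Neurog2 lost their calls under some of the alternatives described below. No member was called higher in the null pool.

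The control group was made of 6 embryos at embryonic day 9.5 that were wild type or heterozygous for the Cop1 null allele, although the array titles call them wild type, and the other group of 6 Cop1-null embryos of that day. COP1 is a RING finger protein that binds substrates such as the transcription factor JUN and directs their ubiquitination and degradation. The RNA of each group was mixed into 1 pool and split into 2 portions, each measured on its own Affymetrix array. Arrays of 1 genotype thus repeat the measurement of the same RNA, the p-values below measure only the spread between portions, and differences between litters or embryos cannot be seen. The labels do not give the strain, the sex, the number of somites or how the allele was made.

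The 4 arrays had median log2 values between 6.03 and 6.10. Cop1 read 11.35 and 11.26 in the control pool against 9.67 and 9.77 in the null pool, a 2.99-fold fall (limma, adjusted p = 0.000728). Where its probe set lies relative to the null allele is not given in the sources used here. Ratios of 3′ to 5′ signal, a sign of RNA integrity, did not separate the genotypes. The log2 ratio of the Gapdh control probe sets lay between -0.06 and 0.00 and that of the actin ones between 0.14 and 0.19. Genes of several tissues of the midgestation embryo were present at high values, among them the embryonic globin gene Hbb-bh1 (14.33 to 14.39) and the atrial myosin light chain gene Myl7 (11.12 to 11.18).

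Proneural bHLH factors bind E-boxes in DNA together with E proteins and commit progenitors to a neuronal fate, while they switch on Notch ligands that hold back neighbouring cells. The NEUROG factors then turn on a second tier of bHLH genes, which includes Neurod1, Neurod4, Nhlh1 and Nhlh2, in cells that leave the cell cycle and become neurons. At the stage studied the first neurons form in the neural tube and in the cranial and spinal ganglia. Several of the members also act outside the nervous system, as Ptf1a does in the pancreatic bud and Neurog3 and Neurod1 do in the endocrine pancreas.

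The start regions of the 4 genes whose differences were greatest are shown. Each is the stretch from 250 bases before to 50 bases after an annotated start, read 5′ to 3′ on the strand of the gene, from RefSeq (GRCm38.p6). Capitals mark E-boxes, the sequence CANNTG, which reads the same on both strands.
Neurog1, chr13:56252131-56252430, minus strand: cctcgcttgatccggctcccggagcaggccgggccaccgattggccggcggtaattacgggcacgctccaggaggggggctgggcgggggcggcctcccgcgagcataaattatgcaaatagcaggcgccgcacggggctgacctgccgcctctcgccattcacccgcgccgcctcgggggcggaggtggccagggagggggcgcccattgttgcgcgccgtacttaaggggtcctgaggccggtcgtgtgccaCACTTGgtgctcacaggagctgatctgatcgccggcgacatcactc
Neurod1, chr2:79456587-79456886, minus strand: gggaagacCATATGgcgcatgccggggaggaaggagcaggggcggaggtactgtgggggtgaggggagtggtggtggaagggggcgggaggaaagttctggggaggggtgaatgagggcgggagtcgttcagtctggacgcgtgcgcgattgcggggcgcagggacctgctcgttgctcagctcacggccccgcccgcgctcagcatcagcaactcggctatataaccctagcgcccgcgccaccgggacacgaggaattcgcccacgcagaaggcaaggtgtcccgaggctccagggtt
Neurod4, chr10:130280089-130280388, minus strand: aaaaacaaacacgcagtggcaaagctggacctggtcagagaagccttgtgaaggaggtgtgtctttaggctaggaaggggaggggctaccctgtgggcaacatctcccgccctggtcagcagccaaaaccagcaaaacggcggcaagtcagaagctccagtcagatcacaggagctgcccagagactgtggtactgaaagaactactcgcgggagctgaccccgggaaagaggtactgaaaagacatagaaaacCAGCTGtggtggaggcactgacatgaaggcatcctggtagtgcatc
Nhlh2, chr3:102009895-102010194, plus strand: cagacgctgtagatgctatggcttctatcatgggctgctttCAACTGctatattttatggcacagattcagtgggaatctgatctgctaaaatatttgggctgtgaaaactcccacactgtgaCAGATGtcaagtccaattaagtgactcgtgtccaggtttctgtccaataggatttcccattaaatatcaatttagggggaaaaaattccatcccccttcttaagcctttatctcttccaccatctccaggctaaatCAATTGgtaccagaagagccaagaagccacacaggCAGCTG

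The 9 members had 10 such windows, since Neurod4 has 2 annotated starts, and the window with an E-box was the one printed for it. An E-box was found in 6 of the 10 windows and in 72.3% of all 32851 windows of that length. The Nhlh2 window held 4 of them, 209 and 127 bases before the start and at positions 10 and 45 after it. The one at 127 bases before the start reads CAGATG, a form that NEUROG and NEUROD proteins bind. This word or its reverse, CATCTG, was found in 2 of the 10 member windows, those of Nhlh1 and Nhlh2, and in 17.2% of all windows. The windows of Atoh1, Ptf1a and Neurog2 held no E-box. These matches describe the sequence and do not show binding.

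The Neurog genes were all lower in the null pool, and Neurog1 was lower by the most. Neurog1, which the proximal cranial sensory ganglia need in order to form, has 2 probe sets. On 1438551_at it read 8.86 and 9.06 in the control pool against 7.40 and 7.35 in the null pool. The genotypes were separated by far more than the portions of either pool, and the difference was -1.58 (SE 0.09, limma, adjusted p = 0.000944). On its dimmer probe set, 1450836_at, Neurog1 read 6.86 and 6.61 against 6.13 and 6.24. That difference of -0.55 (adjusted p = 0.0174) lay under the limit of 1.5-fold and was not called, so the size of the Neurog1 fall depends on the probe set.

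Neurog2, needed for the epibranchial sensory ganglia and for motor neurons, read 8.84 and 8.93 in the control pool against 8.36 and 8.23 in the null pool. Both null arrays lay below both control arrays, with a difference of -0.59 (SE 0.08, adjusted p = 0.00632) that only just exceeded 1.5-fold. It fell under that limit without control replicate 2 (-0.54), without null replicate 2 (-0.52) and after a further quantile normalization (-0.52).

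Neurog3, the gene that endocrine cells of the pancreas need, read 6.40 and 6.42 in the control pool against 5.64 on both null arrays. The 2 null values were identical in the deposited table, as were those of 239 of all 45037 probe sets, so their spread of 0 is not a measure of precision. The difference was -0.77 (SE 0.06, adjusted p = 0.00167). The other Neurog3 probe set, 1422312_a_at, read 4.99 and 5.40 against 4.90 and 4.96, without a call (-0.26, adjusted p = 0.244). With the mean of both probe sets standing for the gene, Neurog3 differed by -0.52 and was not called.

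Atoh1 and Ptf1a, which give rise to different sets of dorsal hindbrain and spinal cord neurons, differed least securely. Ptf1a also is needed for the pancreas to form. It read 6.22 and 6.24 in the control pool against 5.85 and 5.37 in the null pool. The null portions lay 0.48 apart, the widest spread within a genotype among the 14 member probe sets, where the median spread was 0.09. Ptf1a fell by 0.62 (SE 0.17, adjusted p = 0.0452). The call was lost without any one of 3 arrays, the differences then being -0.63 (control replicate 1 left out, adjusted p = 0.161), -0.61 (control replicate 2 left out, adjusted p = 0.175) and -0.38 (null replicate 2 left out, adjusted p = 0.0594).

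Atoh1, which the rhombic lip and inner ear hair cells require, read 7.38 and 7.37 in the control pool against 7.06 and 7.24 in the null pool. The arrays did not overlap between genotypes, but the difference was small and did not pass the test (-0.22, limma, adjusted p = 0.107). Its interval of -0.44 to -0.01 (95%, between portions) does not show that Atoh1 was alike in the pools. The value was -0.13 without null replicate 1, -0.31 without null replicate 2 and -0.46 with the arrays centred on their poly-A spikes, still without a call.

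**Figure D1:**
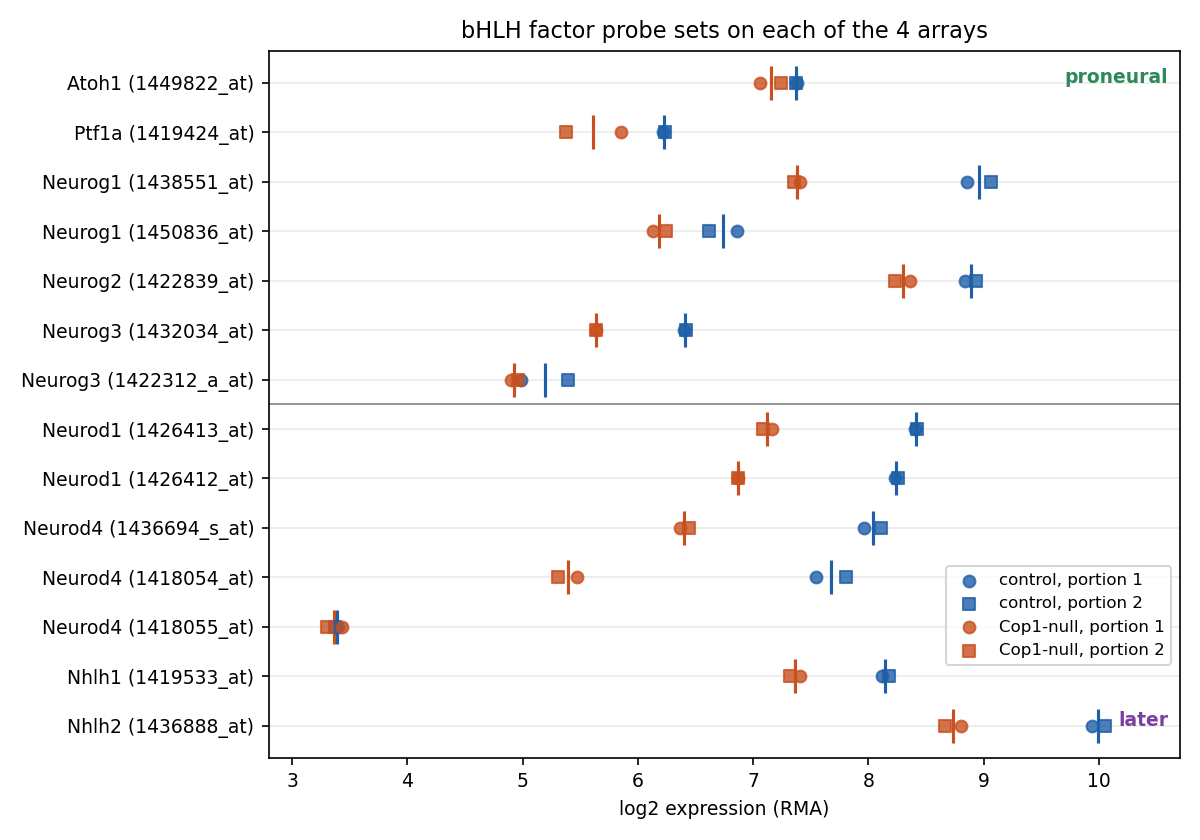
Log2 expression (horizontal axis) of the 14 probe sets of the bHLH genes on each of the 4 arrays, with circles for portion 1, squares for portion 2 and a vertical tick for the mean of each pool. The 2 null arrays lie below the 2 control arrays for 13 of the 14 probe sets, the exception being the dim Neurod4 probe set 1418055_at.

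All 4 later genes fell. Neurod4, which acts with other bHLH factors in forming neurons of the brain and retina, read 7.96 and 8.11 in the control pool against 6.36 and 6.44 in the null pool (1436694_s_at). The gap between genotypes was 1.52 and the portions lay at most 0.15 apart. The difference was -1.63 (SE 0.08, adjusted p = 0.00077), the 33rd largest fall among the 18193 genes. A further Neurod4 probe set, 1418054_at, gave the greatest difference of all 14, from 7.55 and 7.81 to 5.47 and 5.31, a 4.88-fold fall. The remaining one, 1418055_at, read 3.30 to 3.43 on all 4 arrays and was not called. It was brighter than only 7.06% of probe sets.

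Neurod1, which is needed in sensory ganglia and in endocrine cells of the pancreas, fell on both of its probe sets. On 1426413_at it read 8.40 and 8.42 in the control pool against 7.16 and 7.09 in the null pool (-1.29, SE 0.07, adjusted p = 0.000777). On 1426412_at it read 8.23 and 8.25 against 6.87 and 6.87 (-1.37, SE 0.06, adjusted p = 0.00068). The 2 probe sets thus gave nearly the same fall, 2.44-fold and 2.59-fold.

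Nhlh1 and Nhlh2 are close relatives expressed in young neurons, and Nhlh2 later serves neurons of the hypothalamus. Nhlh2, whose start region with 4 E-boxes is printed above, read 9.94 and 10.05 in the control pool against 8.80 and 8.66 in the null pool. It fell by 1.26 on the log2 scale (SE 0.08, adjusted p = 0.00117). Nhlh1 read 8.11 and 8.18 in the control pool against 7.41 and 7.32 in the null pool. Its fall of 0.78 (SE 0.07, adjusted p = 0.00217) was the smallest of the later genes. No later gene lost its call under any alternative that was run, whether an array was left out or the scaling, filter, variance model or probe set rule was changed.

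Of the 14 probe sets, 10 fell and 0 rose (limma), and all 14 differences were negative, where 6.96% of all tested probe sets fell and 6.76% rose. By the probe set with the highest mean, 8 of 9 member genes fell, against 8.06% of all named genes falling and 3.58% rising. Both null arrays lay below both control arrays in 13 of the 14 probe sets, and in 32.7% of all probe sets. The median difference of the 9 genes was -0.78, and that of all genes was -0.02. As the genes were chosen with such results known, these shares describe the members and are no test of them. In RNA of whole embryos, fewer cells of a type and less RNA per cell cannot be told apart.

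**Figure D2:**
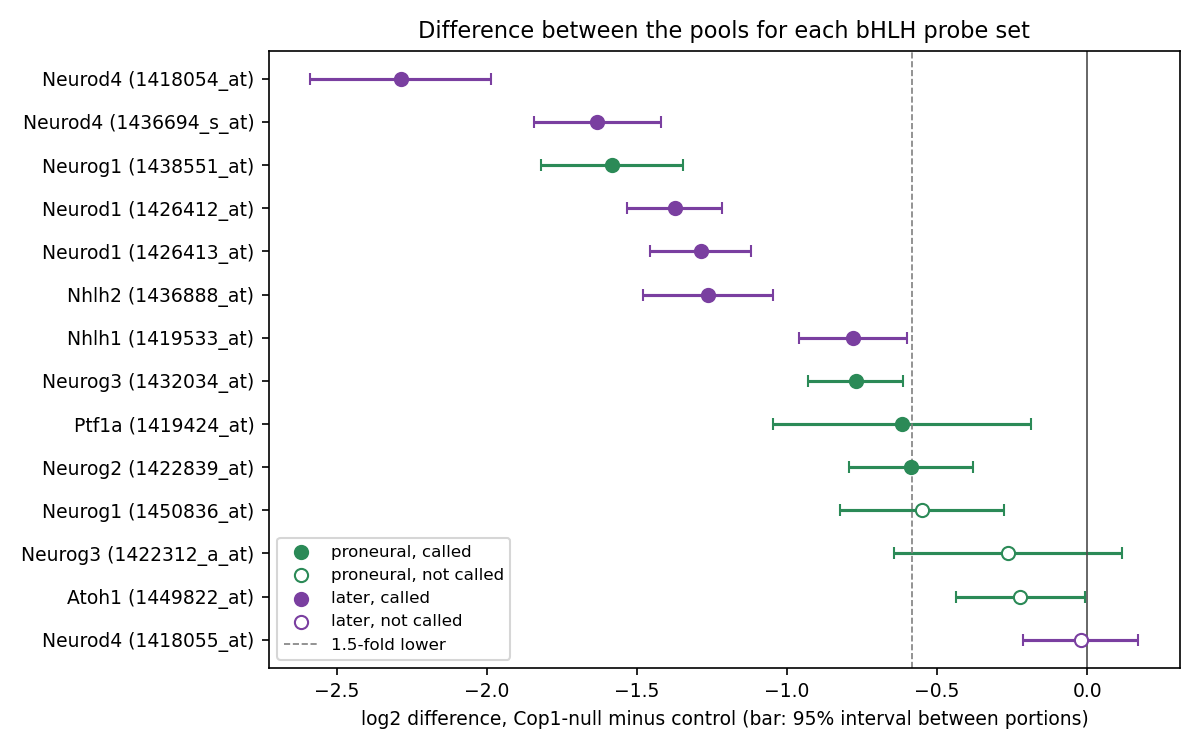
Log2 difference of the null pool minus the control pool (horizontal axis) for each of the 14 probe sets, ordered by size, with bars for the 95% interval between portions. Filled points passed both limits, an adjusted p under 0.05 and at least 1.5-fold, and the dashed line marks 1.5-fold lower. The 4 open points are the dim or second probe sets of Neurog1, Neurog3 and Neurod4, and Atoh1.

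The later genes differed more than the proneural genes on the whole, but the classes overlapped. The median difference was -1.27 for the 4 later genes (2.42-fold) and -0.62 for the 5 proneural genes (1.53-fold). Each later gene was set against each proneural gene, and the later one differed by more in 17 of 20 pairs. The other 3 pairs all held Neurog1, whose difference exceeded those of Neurod1, Nhlh1 and Nhlh2. The tally was 15 to 17 of 20 when single arrays were left out and 16 with a further quantile normalization, since in some of these Neurog3 or Ptf1a exceeded Nhlh1, or Neurog1 exceeded Neurod4. With the mean of all probe sets standing for a gene it was 19 of 20, as Neurog1 then exceeded only Nhlh1. Near the border between the classes, Nhlh1 (-0.78) and Neurog3 (-0.77) did not differ beyond their spread, with 95% intervals of -0.96 to -0.60 and -0.93 to -0.61. The intervals of Neurog1 (-1.82 to -1.35) and Neurod4 (-1.84 to -1.42) also overlapped almost wholly. The classes also differed in signal level. Ptf1a and Neurog3 were brighter than 47.8% and 49.4% of probe sets, and the later genes than 64.9% to 87.4%. Atoh1, Neurog1 and Neurog2 lay within that later range (65.4%, 75.3% and 80.0%). The part of signal level in the class difference was not tested. With 1 pool per genotype the difference between the classes was given no test.

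Members of the same subfamily were compared by the log2 ratio of their signals on each array. The level of such a ratio depends on the probes, so only its change between pools is read. The ratio of Neurog1 to Neurog2 was 0.02 and 0.13 in the control pool against -0.96 and -0.88 in the null pool, a change of -0.99. That of Neurog1 to Neurog3 changed by -0.81, and that of Neurog2 to Neurog3 by 0.18. The ratio of Nhlh1 to Nhlh2 rose from -1.82 and -1.87 to -1.39 and -1.34, a change of 0.48, and that of Neurod1 to Neurod4 changed by 0.34. The exact permutation test over the 4 arrays gave p = 0.333 for each, two-sided and also after adjustment over the 5 pairs, which is the smallest p that 2 arrays against 2 allow. On its dimmer probe set Neurog1 differed by -0.55, close to the -0.59 of Neurog2, so the unequal change within the Neurog genes rests on 1438551_at.

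**Figure D3:**
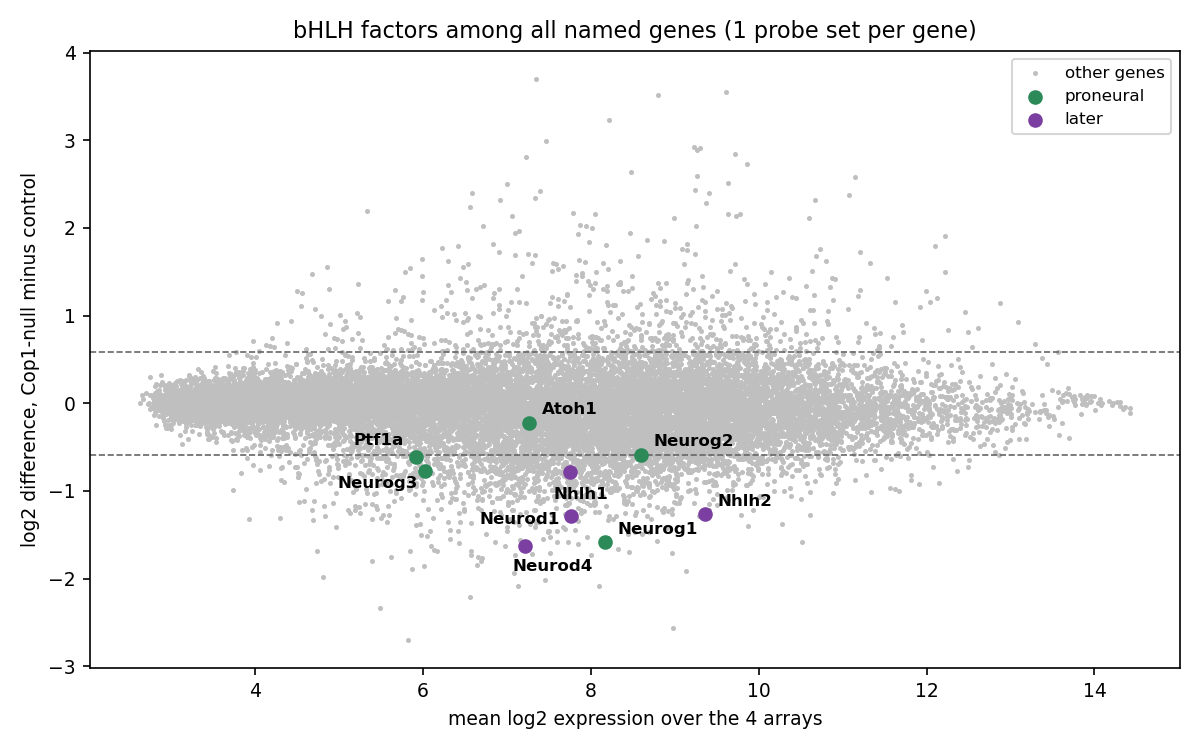
Log2 difference of the null pool minus the control pool (vertical axis) against mean log2 expression over the 4 arrays (horizontal axis) for 18193 genes in grey, 1 probe set per gene, with proneural genes in green and later genes in purple. The dashed lines mark 1.5-fold. Neurod4 and Neurog1 lie among the 40 genes with the greatest fall and Neurod1 and Nhlh2 among the first 117, while Atoh1 lies between the dashed lines.

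Calls among other bHLH factors, partners and inhibitors are given beside the shares of all genes, of which 8.06% fell and 3.58% rose. Of 8 measured neural bHLH genes outside the members, 2 fell and 0 rose, with a median of -0.16 that lay between -0.08 (without control replicate 1) and -0.24 (without null replicate 2) when single arrays were left out. These were Bhlhe23 (-0.62, adjusted p = 0.00375) and Olig2, the factor of motor neuron progenitors (-0.62, adjusted p = 0.0107). Bhlhe23 lost its call without control replicate 1 (-0.58), and Olig2 did so without control replicate 1 (-0.52) and without null replicate 2 (-0.55). Of E proteins, the partners of the members, and Id proteins, which sequester E proteins, 7 genes were measured. By the probe set standing for each gene, only Id4 was called. Other probe sets of Tcf12 (2 rises and 1 fall) and of Id2 (1 rise) were also called. Tcf3 (-0.52, limma, adjusted p = 0.00686) and Tcf4 (-0.42, adjusted p = 0.0171) were lower, under the limit of 1.5-fold. Id2 was higher (0.40, adjusted p = 0.0134), also under it. Of the 7 differences, 4 were negative. Id4 read 10.96 and 10.98 in the control pool against 9.58 and 9.61 in the null pool, a fall of 1.38 (adjusted p = 0.000681). Its other 2 probe sets fell as well.

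Few Notch genes were called. Among 13 ligand, receptor and modifier genes, 1 fell and 1 rose, shares near those of all genes (8.06% and 3.58%), with a median of 0.02 that turned to -0.22 on centring the arrays on their poly-A spikes and to -0.04 without null replicate 1. The receptor gene Notch1 fell by 0.81 (adjusted p = 0.00202) and the ligand gene Dll4, which is active in arteries, rose by 0.80 (adjusted p = 0.00696). The rise of Dll4 was not called with spike centring (0.56). Under the limit of 1.5-fold, Dll3 (-0.52, limma, adjusted p = 0.00447) and Dll1 (-0.29, adjusted p = 0.0241) were lower. Jag1 was higher (0.37, adjusted p = 0.0112), also under that limit. Of the 13 differences, 6 were negative. Of 8 Hes and Hey repressor genes, 3 fell and 0 rose, although their median was 0.08. It was 0.04 without control replicate 1, 0.02 without null replicate 1, 0.01 with a further quantile normalization and -0.15 with spike centring. These were Heyl (-1.55, adjusted p = 0.000935), Hes6, a proneural target that counters HES1 (-0.91, adjusted p = 0.00135), and Hes5, a Notch target in neural progenitors (-0.75, adjusted p = 0.00203). All 3 had another probe set that fell. Hes1 was higher in the null pool by 0.41 (limma, adjusted p = 0.0106), without a call. Of the 8 differences, 4 were negative.

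Genes of neuron commitment downstream of the members fell in 5 of 15 cases, with 0 rises, where 8.06% of all genes fell and 3.58% rose. Their median was -0.33, and 12 of the 15 differences were negative. Gadd45g was higher in the null pool by 0.47, without a call. Some genes not called by the probe set standing for them had a call on another. It was a fall for Btg2, Ebf1 and Ebf3 and a rise for Onecut1. St18, a zinc finger gene of the Myt1 family, read 7.34 and 7.53 in the control pool against 5.77 and 5.64 in the null pool, a fall of 1.73 (adjusted p = 0.000885). Insm1, a zinc finger repressor of neuronal and endocrine progenitors, fell by 1.14 (adjusted p = 0.00527). Rnd2, a small GTPase gene of neuron migration that NEUROG2 activates, fell by 1.11 (adjusted p = 0.00125).

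Neuron structural genes moved with the members. Of 16, 9 fell and 0 rose, all 16 differences were negative and the median was -0.66. Those with the greatest fall were Chrna3, an acetylcholine receptor subunit gene (-0.99, adjusted p = 0.0037), Stmn2, a regulator of growth cone microtubules (-0.92, adjusted p = 0.00164), and Elavl4, an RNA-binding protein gene of neurons (-0.84, adjusted p = 0.00322). Summed over the list, the log2 signal was 14.25 to 14.28 on the control arrays and 13.74 on both null arrays, and no member of the list was at 0. Elavl2 and Elavl3, not called by the probe set standing for each, both had another probe set that fell. Neural progenitor genes gave, by the probe set standing for each gene, 3 falls and 0 rises among 15, with 11 negative differences and a median of -0.25. Their summed log2 signal was 13.71 to 13.73 against 13.48 to 13.53. Irx3 was higher in the null pool by 0.49, without a call. The falls were those of Fabp7 (-1.09), a radial glia gene, Dbx1 (-1.07), a gene of interneuron progenitors, and Nes (-0.64), the intermediate filament gene of neural stem cells. Nes lost its call without control replicate 1 (-0.58) and without null replicate 2 (-0.57). Another probe set of Msi1 rose and another of Sox21 fell, although neither gene was called by the probe set standing for it. The part of the neuron and progenitor lists in the lower member values was not tested.

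Among genes of neuron subtypes in the neural tube, 5 of 14 fell and 0 rose (median -0.54), with 3 falls without control replicate 1 and 2 falls without control replicate 2. Lhx9, a gene of the interneurons that arise from Atoh1-expressing progenitors, fell by 1.29 (adjusted p = 0.000788) on a probe set joined by 3 others, while Atoh1 itself was not called. Lhx1 (-0.88) and Sim1 (-0.66) mark other interneurons. Lhx1 was not called without either control array or without null replicate 1 (adjusted p = 0.051 to 0.0834), and Sim1 not without control replicate 2 or null replicate 2. Of 12 sensory and autonomic ganglion genes, 2 fell and 1 rose (median -0.16). Another probe set of Ntrk2 fell, although the one standing for the gene was higher (0.44) without a call. Eya1, a gene of the cranial placodes, fell by 0.99 (adjusted p = 0.00109), and Pou4f1, which encodes a sensory neuron factor, fell by 0.78 (adjusted p = 0.00197). Ntrk3, the neurotrophin 3 receptor gene, rose by 0.59 (adjusted p = 0.00319) on 1 of 8 probe sets, and lost the call without control replicate 2, without null replicate 2 and on either change of scaling.

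**Figure D4:**
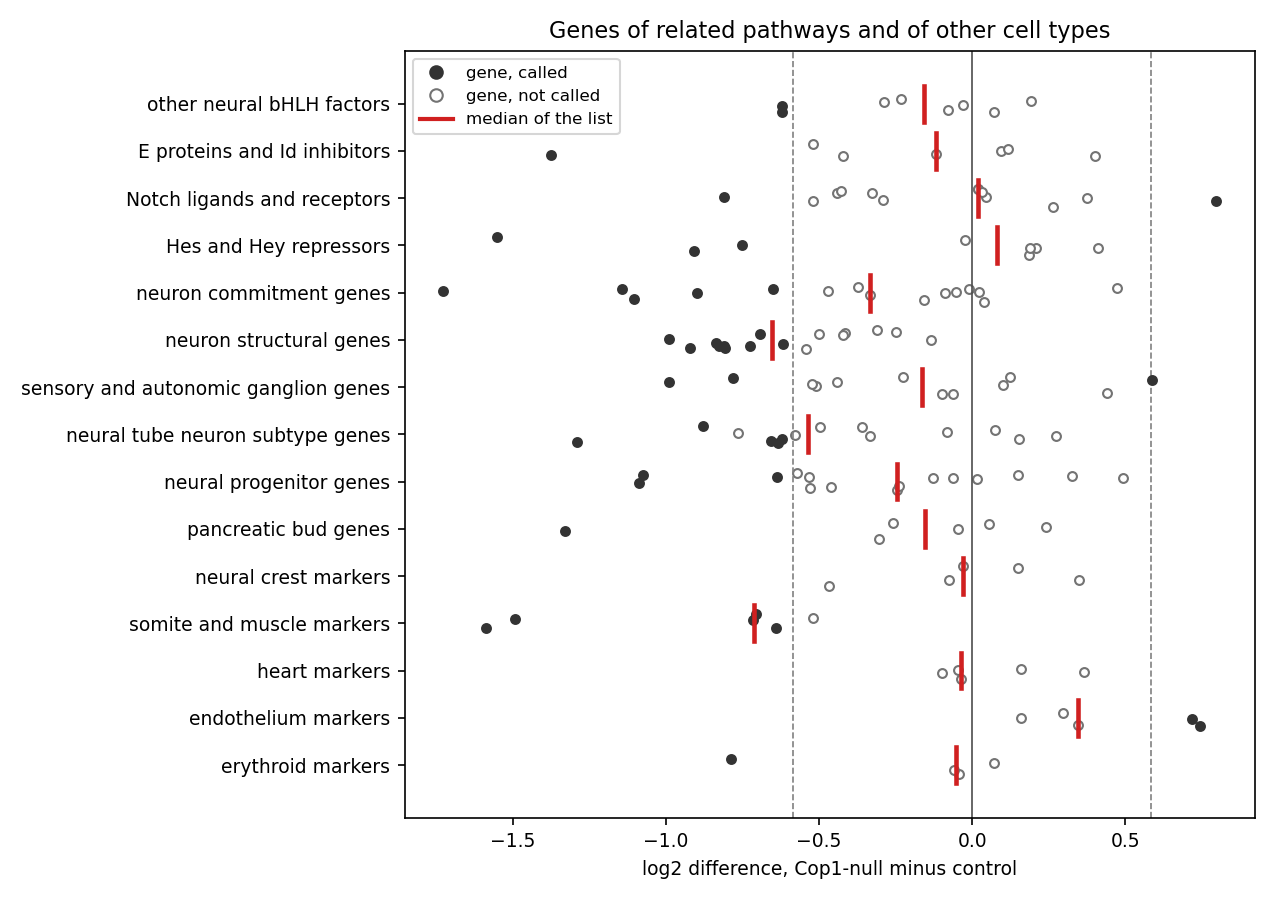
Log2 difference of the null pool minus the control pool (horizontal axis) for the genes of 15 lists, 1 point per gene, filled where called, with a red bar at the median of each list and dashed lines at 1.5-fold in either direction. The neuron structural list, with a median of -0.66, and the somite and muscle list, with -0.71, lie furthest to the left, and the endothelium list, at 0.34, furthest to the right.

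Markers of other cell types differed in both directions. In the pancreatic bud list, set beside Ptf1a and Neurog3, 1 of 6 measured genes fell. It was Gcg, the glucagon gene, from 5.31 and 5.40 to 3.90 and 4.15 (adjusted p = 0.00174), on a probe set brighter than 28.9% of all. Pdx1, the defining factor of the pancreatic bud, read 4.76 and 4.98 against 5.13 and 5.10, without a call. Somite and muscle markers fell in 5 of 6 cases (median -0.71), led by Pax1 (-1.59), Myog (-1.49) and Myf5 (-0.72), and their summed log2 signal was 10.79 to 10.83 against 10.02 to 10.06. Of 5 endothelium markers 2 rose, Kdr (0.74) and Pecam1 (0.72), neither with spike centring, and the summed signal was 10.69 to 10.72 against 11.17. By the probe set standing for each gene, none of 5 neural crest and none of 5 heart markers differed by 1.5-fold, although other probe sets of Ets1 and Tnnt2 were called. The greatest differences were those of Sox10 (-0.47), Tfap2a (0.35), Nkx2-5 (0.36) and Actc1 (0.16), and with spike centring Sox10 fell (-0.70, adjusted p = 0.000975) and Actc1 turned to -0.07. Of 4 erythroid markers Klf1 fell (-0.79). Of the called list genes named here, Notch1, Dll4, Stmn2, Lhx1, Sim1, Nes, Ntrk3 and Pax1 had further probe sets of which none was called. The part of these cell types in the member differences was not tested.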

How the data were processed

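The authors deposited log2 expression values for 4 Affymetrix arrays. Per the submitters' processing notes, RMA was run through affy, an R package, in versions not stated there. RMA gives all arrays 1 distribution of probe intensities, so a change in total RNA leaves no trace. Of 45101 probe sets, 64 Affymetrix controls were left out and 45037 tested with limma 3.58.1 in R 4.3.3 (lmFit and eBayes, genotype as the only term, null minus control, Benjamini-Hochberg adjustment over all of them). A call needed an adjusted p under 0.05 and at least 1.5-fold. The probe set with the highest mean stood for a gene. Symbols came from the platform annotation, and 148 of 148 list and member genes matched RefSeq (GRCm38.p6) by gene number. The fit was tested on simulated data. The members and lists were chosen with earlier results of these data known. The text names all members and, of each list, up to 3 called genes with the largest difference, or 2 where none was called. Hbb-bh1, Myl7, Pdx1, Gadd45g, Irx3, Dll1, Dll3, Jag1, Hes1, Tcf3 and Tcf4 were named after their values were seen. So were genes with a call only on another probe set. Each array lacks a read depth, and the number of arrays limits the precision. Alternatives were a replicate block, each array left out, further quantile normalization, centring on 24 poly-A spike probe sets, a filter on the dimmest 40%, a variance trend, no fold limit and the mean of a gene's probe sets.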

Additional observations from a re-analysis of the deposited data

How the results depend on the processing

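All 90 member differences recomputed under the alternatives were negative, and 82 kept their side of the limits. Only the changes of scaling could have turned a sign. The other settings kept the same differences, averaged negative ones, or left out arrays of probe sets whose pools did not overlap. The 8 lost calls were those of Ptf1a (4), Neurog2 (3) and Neurog3 (1). Leaving out each array gave 6 to 8 called member genes, a median of -0.77 to -0.52 for the proneural genes and -1.33 to -1.22 for the later genes. Centring on the poly-A spikes changed the all-gene median from -0.02 to -0.26, the proneural median to -0.85 and the later median to -1.51. The calls over all probe sets went from 49.3% rises to 22.4%. Spike medians increased in the order control replicate 1 (7.40), control replicate 2 (7.63), null replicate 1 (7.67) and null replicate 2 (7.83). The control portions, though of the same RNA, thus lay further apart than control replicate 2 lay from null replicate 1. Calls gained or lost under spike centring carry this imprecision. The same centring took the falls among Notch genes from 1 to 4, among neuron subtype genes from 5 to 9, among progenitor genes from 3 to 7, among ganglion genes from 2 to 5 and among E protein and Id genes from 1 to 3. With no fold limit 14734 probe sets were called against 6178, and 86 list genes against 42, since that setting drops a limit. Array numbers are shared by label only, and the deviations of same-numbered arrays correlated at 0.06 over probe sets. With the replicate block 6097 probe sets and 7 of 9 member genes were called, Ptf1a losing its call (-0.62, adjusted p = 0.0591). Dim probe sets limit what can be seen, as 2 of the 14 lay in the dimmest 40%.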
